A study of Mus musculus with 24 samples.

Results

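Cells that carried Cre and full-length NFIA (Cre + NFIA) were compared with ctrl cells at day 7 of thermogenic adipocyte differentiation. The comparison took the libraries whose titles name these cell types at day 7, 3 of Cre + NFIA and 3 of ctrl, which are 6 of the 24 libraries of the series. It asks how cells with introduced NFIA differ from cells that keep their own Nfia and received no NFIA. All cells were an immortalised stromal vascular fraction (ingSVF) from the inguinal white fat of mice, a mixed preparation that holds adipocyte precursors. They came from mice with loxP sites around exon 2 of Nfia and carried SV40 large T antigen. The ctrl cells had empty retroviral vector, and the Cre + NFIA cells had retroviral Cre and 3xFLAG-tagged full-length NFIA. The viral promoter drives NFIA in precursors as well as in adipocytes. Whether a cell type stems from 1 infection or 1 clone is not given in the sources used here. Day 7 cells of both groups had been kept for 48 hours in isobutylmethylxanthine, indomethacin, dexamethasone, insulin, T3 and rosiglitazone and then in insulin, T3 and rosiglitazone, whereas day 0 cells had no differentiation agents. The other groups, used only beside these, were Cre alone and Cre + NFIA Δpro#3, an NFIA without a proline-rich stretch of its C terminus. The ages of the animals are not given in the labels. Nothing in the labels says that replicates were separate cultures, so p-values measure the spread between these samples, which may be technical.

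NFIA belongs to the nuclear factor I family (Nfia, Nfib, Nfic and Nfix), whose members bind the palindrome TTGGC, 5 bases, GCCAA, or a single arm of it, as dimers. In fat, NFIA is known as a regulator of brown and beige adipocytes that occupies enhancers together with PPARγ, the nuclear receptor that drives fat cell formation. Thermogenic adipocytes hold many mitochondria and burn fatty acids, and they express Ucp1, which uncouples respiration, with Cidea, Cox8b, Cox7a1, Ppargc1a and Ppara among their usual marker genes.

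The values are FPKM, reads per kilobase of gene per 1000000 counted reads. The 6 libraries held 10.50 to 14.62 M counted reads (M, 1000000), so that 3 reads, the smallest amount taken as shown, were 0.205 to 0.286 reads per 1000000. Of 24825 genes listed, 11690 had FPKM of at least 1 in at least 3 of the 6 libraries and were tested with limma on log2(FPKM + 1). Differences below are Cre + NFIA minus ctrl on this scale, with the standard error (SE) and the Benjamini-Hochberg adjusted p. A gene passed at an adjusted p under 0.05, and it was called when the difference was also at least 3-fold on the same scale. A linear fold is the ratio of mean FPKM, and it is larger than the fitted difference in genes of low level. Per degree of freedom, the chi-square of 2 replicates' reads was 5.22 to 9.64 in ctrl and 2.95 to 3.57 in Cre + NFIA, against 16.09 to 23.61 for pairs of 1 ctrl and 1 Cre + NFIA library, so no library repeated another.

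The introduced gene came first. Nfia (chromosome 4, 97439425 to 97868605, positions here and below from the GENCODE vM1 annotation of mm9) was at 9.81, 9.15 and 9.699 FPKM in the 3 ctrl libraries and at 97.1, 88.98 and 83.9 FPKM in Cre + NFIA. The groups lay far apart, with a linear fold of 9.42 and a log2 difference of 3.11 (SE 0.072, limma adjusted p = 1.64e-10). The gene-level value sums reads of the cells' own gene and of the transgene and cannot tell them apart. In cells with Cre alone Nfia was at 10.7, 10.1 and 9.49 FPKM, so the gene-level value does not check the loss of exon 2. In these values the direction drawn from that label rests on the label. The study itself reports efficient recombination by genomic PCR, and nearly complete loss of NFIA in Cre-expressing cells by RT-qPCR and western blot. Of the other family members, Nfix was lower at 32.05, 32.3 and 32.6 FPKM against 40.5, 39.9 and 36.2 in ctrl (log2 difference -0.26, SE 0.055, limma adjusted p = 0.00696). Nfib, at 15.3, 14.3 and 15.9 FPKM in ctrl against 13.1, 13.4 and 11.7 in Cre + NFIA, had a difference of -0.24 (SE 0.17, limma adjusted p = 0.359). Nfic was at 59.3 to 63.96 FPKM in ctrl and 58.1 to 61.5 in Cre + NFIA (log2 difference -0.038, SE 0.054, limma adjusted p = 0.674), and its groups overlapped.

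At day 7, 32 genes were called higher in Cre + NFIA than in ctrl, 0.274% of the 11690 tested, and 7 were called lower, 0.0599%. Without a fold threshold 1125 genes passed as higher (9.62%) and 1153 as lower (9.86%). The median size of the difference among passed genes was 0.38 on the log2 scale. At 2-fold or more the counts were 97 higher and 35 lower. The passed genes were thus divided about equally between the directions, whereas the called genes lay mostly on the higher side. Of the 39 called genes, 34 were at least 200 bases long, 29 of them higher and 5 lower. In each of these 34 the 3 Cre + NFIA libraries lay apart from the 3 ctrl libraries, as they did in 2627 genes on the higher and 2134 on the lower side among all genes tested.

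**Figure D1:**
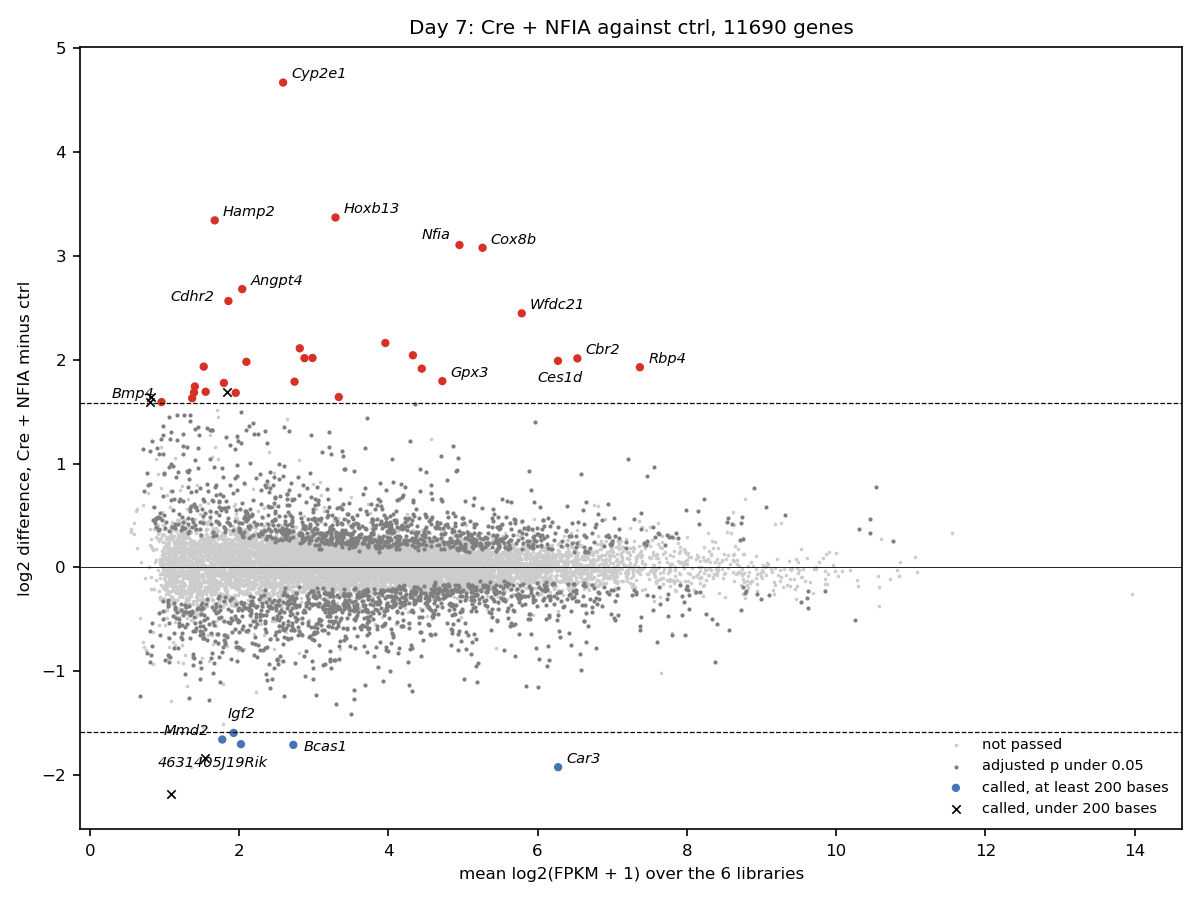
Difference of each tested gene at day 7 (vertical axis, log2, Cre + NFIA minus ctrl) against its mean log2(FPKM + 1) over the 6 libraries (horizontal axis), with dashed lines at 3-fold. Light grey points did not pass, dark grey points passed, red and blue points are called genes of at least 200 bases, and crosses are called genes under 200 bases. Cyp2e1 stands highest at 4.67, and Car3 is the called gene of at least 200 bases with the lowest value, -1.92.

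Among the largest differences were those of genes that ctrl cells hardly held. Cyp2e1 (chromosome 7, 147949638 to 147960874), a cytochrome P450 that oxidises ethanol and other small molecules and is best known from liver, was at 0.328, 0.274 and 0 FPKM in ctrl against 29.5, 34.8 and 24.5 in Cre + NFIA. No ctrl library held more than 7 reads of it and no Cre + NFIA library fewer than 623, with a log2 difference of 4.67 (SE 0.14, limma adjusted p = 1.69e-09). Hoxb13 (chromosome 11, 96055630 to 96058761), a posterior homeobox gene, was at 2.02, 2.57 and 1.604 FPKM in ctrl against 30.2, 31.00 and 30.2 in Cre + NFIA, a linear fold of 14.7 (log2 difference 3.37, SE 0.11, limma adjusted p = 2.13e-09). Hamp2 (chromosome 7, 31707391 to 31709200), a gene of the hepcidin family, had 0 reads in each ctrl library and was at 8.69, 11.02 and 7.98 FPKM in Cre + NFIA. Set against a floor of 3 reads per ctrl library, it was at least 16.3-fold higher (log2 difference 3.34, SE 0.13, limma adjusted p = 1.32e-08). Cdhr2, a cadherin of the epithelial brush border, was at 0.416 to 0.618 FPKM in ctrl and 7.52 to 8.16 in Cre + NFIA, a linear fold of 15.96. Olig1, a helix-loop-helix factor of the oligodendrocyte lineage, Tppp, a tubulin-binding protein, and Trpv3, a heat-gated cation channel, had ctrl values of at most 0.929 FPKM and Cre + NFIA values of 3.06 to 4.61 FPKM. Of the 29 called higher genes of at least 200 bases, 11 had a ctrl mean under 1 FPKM, 11 a mean of 1 to 10 and 7 a mean above 10 FPKM. Genes under 1 FPKM in each ctrl library, Hamp2 among them, met the filter through the Cre + NFIA libraries alone. Nothing is therefore read from the number of genes with a low ctrl level.

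The called genes also held several enzymes, described one by one and not as a tested group. Cox8b (chromosome 7, 148084842 to 148086345), the heart and brown fat isoform of cytochrome c oxidase subunit 8, was at 9.87, 14.4 and 12.7 FPKM in ctrl against 109.7, 115 and 107 in Cre + NFIA, a linear fold of 8.97 (log2 difference 3.08, SE 0.13, limma adjusted p = 2.97e-08). Fabp3, the fatty acid binding protein of heart, muscle and brown fat, was at 1.400, 2.08 and 4.21 FPKM in ctrl against 14.3, 14.9 and 11.8 in Cre + NFIA (log2 difference 2.11, SE 0.25, limma adjusted p = 0.000153). The third ctrl library held more Fabp3 than the other two ctrl libraries, but all lay below Cre + NFIA. The neighbouring carboxylesterase genes Ces1d and Ces1f (chromosome 8, 95689967 to 95721737 and 95780135 to 95803646), which hydrolyse lipid esters, both rose. Ces1d was at 32.1, 39.98 and 42.1 FPKM in ctrl against 151, 157 and 151 in Cre + NFIA, and its log2 difference was 1.99 (SE 0.22, limma adjusted p = 9.43e-05). The log2 difference of Ces1f was 1.92 (SE 0.18, limma adjusted p = 2.92e-05), from a range of 7.99 to 11.7 to one of 38.9 to 43.6 FPKM. The members of this enzyme family are close copies, and because only unique alignments were kept, reads from stretches that they share are not counted. Chdh, the mitochondrial choline dehydrogenase, rose from a range of 2.53 to 2.81 to one of 13.1 to 14.2 FPKM (log2 difference 2.02, SE 0.086, limma adjusted p = 3.22e-08). Cbr2, a mitochondrial carbonyl reductase, was at 34.5 to 51.9 FPKM in ctrl and 179 to 197 in Cre + NFIA. Pla2g2e, a secreted phospholipase, was at 4.11 to 8.51 FPKM in ctrl and 27.8 to 36.9 in Cre + NFIA. Amy1, an amylase, was at 2.41 to 2.82 and 11.04 to 11.8 FPKM in the same order, and reads that also align to another amylase copy are not counted.

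Rbp4 (chromosome 19, 38191110 to 38199811), the plasma carrier of retinol, was the called gene with the highest level in Cre + NFIA, at 78.8, 87.9 and 84.8 FPKM in ctrl against 307, 346 and 313 in Cre + NFIA (log2 difference 1.93, SE 0.195, limma adjusted p = 5.17e-05). Angpt4, an angiopoietin that binds the Tie2 receptor of endothelial cells, was at 0.627, 1.02 and 0.303 FPKM in ctrl against 9.65, 8.96 and 9.65 in Cre + NFIA, a linear fold of 14.5 (log2 difference 2.68, SE 0.15, limma adjusted p = 4.09e-07). Wfdc21, a small whey-acidic-protein-domain gene, was at 21.3 to 24.6 FPKM in ctrl and 118 to 144 in Cre + NFIA (log2 difference 2.45, SE 0.26, limma adjusted p = 7.27e-05). Mc5r, the melanocortin 5 receptor, was at 2.71 to 3.36 FPKM in ctrl and 13.6 to 17.1 in Cre + NFIA. Igfbp5, which binds insulin-like growth factors, rose from a range of 0.3895 to 0.557 to one of 4.19 to 5.53 FPKM, and Bmp4, a bone morphogenetic protein, from a range of 0.0463 to 0.241 to one of 2.03 to 2.71 FPKM. Entpd2, a membrane ectonucleotidase, was at 0.935 to 1.46 FPKM in ctrl and 7.41 to 7.58 in Cre + NFIA. Plvap, a component of the diaphragms of endothelial vesicles, was at 0.929 to 1.300 FPKM in ctrl and 5.21 to 6.57 in Cre + NFIA. Beside it, the summed level of 12 endothelial markers was 6.24 to 6.44 FPKM in ctrl and 11.7 to 14.4 in Cre + NFIA. Tie1 and Emcn of that list were at 0 in all 6 libraries and Cdh5 had at most 1 read, and only Ramp2 and Egfl7 could be tested. Ramp2, a receptor-activity-modifying protein, rose (1.31, SE 0.12, limma adjusted p = 1.86e-05), whereas Egfl7, an endothelial matrix protein, did not pass. The part of these markers in the Plvap difference was not tested.

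The glutathione enzymes Gpx3, a secreted peroxidase, and Gsta3, a transferase, were also called. Gpx3 was at 14.6, 12.9 and 12.1 FPKM in ctrl against 47.2, 46.3 and 51.2 in Cre + NFIA (log2 difference 1.79, SE 0.11, limma adjusted p = 9.95e-07), and Gsta3 at 3.89 to 5.37 and 15.4 to 17.99 FPKM. The remaining called higher genes of at least 200 bases were AW112010, Zfp185 and Endod1, with log2 differences of 2.04 (SE 0.21), 1.78 (SE 0.12) and 1.74 (SE 0.11).

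**Figure D2:**
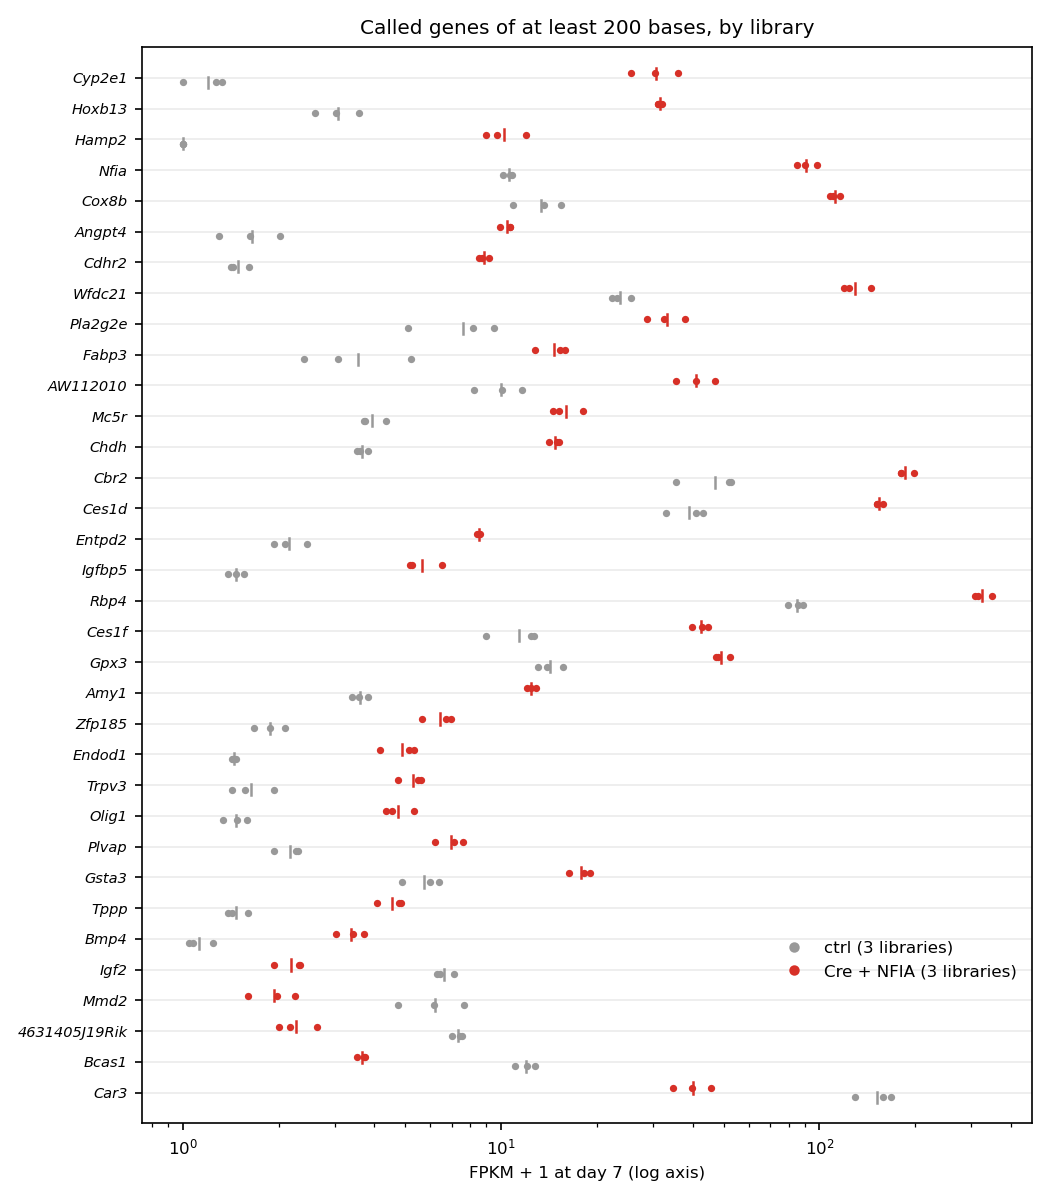
FPKM + 1 at day 7 (horizontal log axis) of the 34 called genes of at least 200 bases, ordered by the log2 difference. Grey points are the 3 ctrl libraries and red points the 3 Cre + NFIA libraries, with short lines at the group means. No gene has overlapping groups, and Hamp2 lies at 1, that is at 0 FPKM, in each ctrl library.

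The letters around the start sites of the called genes were searched because NFI proteins bind a known motif. RefSeq windows of GRCm38.p6, from 250 bases before to 50 after the start, were found for 24 of the 34 called genes of at least 200 bases, 21 higher and 3 lower. Chdh, Rbp4, Amy1 and Igf2 have several windows each, so windows are not separate genes. The windows of the higher genes include that of the cells' own Nfia, although a viral promoter drives the introduced NFIA. The single-arm NFI motif TTGGCA was in 8 of 25 windows of the higher genes, in 1 of 6 of the lower genes and in 14.12% of all 32851 windows, on either strand. The full palindrome was in 0 of these windows and in 0.04% of all. The nuclear receptor motif AGGTCA was in 3 of 25 windows of higher genes and 16.26% of all windows. The pair AGGTCA, 1 base, AGGTCA and the estrogen-related receptor motif TCAAGGTCA, which contains AGGTCA, were in 0 of 25, against 0.04% and 0.42% of all windows. The C/EBP letters TTGCNNAA were in 2 of 25 windows and 10.8% of all windows. A match is a description of the letters and no evidence of binding. The 5 called higher genes with the largest differences that have a window, apart from Nfia, are printed 5′ to 3′ on the strand of the gene, with TTGGCA or its reverse complement TGCCAA in capitals and the place of an exact match in mm9.
Cyp2e1, chr7:147949468-147949767 of mm9, plus strand: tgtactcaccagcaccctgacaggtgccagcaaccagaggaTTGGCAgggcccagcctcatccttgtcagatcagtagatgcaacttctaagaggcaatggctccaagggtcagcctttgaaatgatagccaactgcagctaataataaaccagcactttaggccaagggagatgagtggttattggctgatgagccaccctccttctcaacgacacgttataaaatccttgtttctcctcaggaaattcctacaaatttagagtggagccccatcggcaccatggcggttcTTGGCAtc
Hamp2, chr7:31709151-31709450 of mm9, minus strand: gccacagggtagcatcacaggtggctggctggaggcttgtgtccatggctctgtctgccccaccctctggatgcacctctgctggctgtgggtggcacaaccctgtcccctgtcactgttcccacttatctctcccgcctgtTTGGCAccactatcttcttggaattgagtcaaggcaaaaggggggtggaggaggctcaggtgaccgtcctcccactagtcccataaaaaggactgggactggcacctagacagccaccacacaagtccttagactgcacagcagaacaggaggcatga
Cox8b, chr7:148086296-148086595 of mm9, minus strand: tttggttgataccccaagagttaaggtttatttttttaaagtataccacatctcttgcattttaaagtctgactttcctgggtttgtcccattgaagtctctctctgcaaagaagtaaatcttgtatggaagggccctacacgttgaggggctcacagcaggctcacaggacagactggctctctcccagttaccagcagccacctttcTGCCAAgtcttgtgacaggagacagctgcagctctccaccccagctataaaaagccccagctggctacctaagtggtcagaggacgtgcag
Angpt4, chr2:151736693-151736992 of mm9, plus strand: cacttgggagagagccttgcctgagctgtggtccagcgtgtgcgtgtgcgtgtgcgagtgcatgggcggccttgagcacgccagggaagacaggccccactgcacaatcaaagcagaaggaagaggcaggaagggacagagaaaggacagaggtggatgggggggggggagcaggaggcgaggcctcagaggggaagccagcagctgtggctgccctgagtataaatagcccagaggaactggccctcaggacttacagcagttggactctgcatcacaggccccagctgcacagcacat
Cdhr2, chr13:54802574-54802873 of mm9, plus strand: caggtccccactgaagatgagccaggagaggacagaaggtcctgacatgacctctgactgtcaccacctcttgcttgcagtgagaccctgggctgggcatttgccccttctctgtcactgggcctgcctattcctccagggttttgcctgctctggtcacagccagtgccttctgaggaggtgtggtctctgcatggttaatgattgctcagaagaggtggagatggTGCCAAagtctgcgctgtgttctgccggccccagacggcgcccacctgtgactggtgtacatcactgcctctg
Cyp2e1 held TTGGCA at 209 bases before and at 42 after the start, Hamp2 once at 108 bases before, Cox8b at 41 and Cdhr2 at 23 bases before the start. Angpt4, which was higher in Cre + NFIA at both days, held none in this window.

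Genes called lower were fewer. Car3 (chromosome 3, 14863538 to 14872351), the carbonic anhydrase abundant in fat and muscle, was at 128, 166 and 157 FPKM in ctrl against 38.7, 44.7 and 33.6 in Cre + NFIA, so ctrl was 3.86-fold higher (log2 difference -1.92, SE 0.305, limma adjusted p = 0.00104). Igf2 (chromosome 7, 149836673 to 149852721), an imprinted growth factor gene, was at 6.13, 5.28 and 5.41 FPKM in ctrl against 1.32, 0.939 and 1.33 in Cre + NFIA (log2 difference -1.59, SE 0.12, limma adjusted p = 5.14e-06). Bcas1, a gene of myelin-forming cells, was at 10.1 to 11.7 FPKM in ctrl and 2.53 to 2.73 in Cre + NFIA (log2 difference -1.71, SE 0.16, limma adjusted p = 3.11e-05). Mmd2, a membrane protein of the progestin and adipoQ receptor family, fell by a log2 value of 1.66 and 4631405J19Rik by 1.70. The 5 called genes under 200 bases were Mir5123, Snord65 and Mir7647 on the higher side and Snora20 and Mir196a-2 on the lower. Those of the lower side held at most 5 reads in a library, and Snord65 and Mir7647 had 0 reads in ctrl and as few as 1 in Cre + NFIA. Nothing further is drawn from these 5.

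Fat cell identity was read from 8 adipocyte markers, all of which were detected in both groups, as the label of differentiated cells states. None of the 8 passed. Pparg was at 50.1, 51.2 and 54.8 FPKM in ctrl against 60.2, 63.2 and 56.5 in Cre + NFIA (log2 difference 0.201, SE 0.18, limma adjusted p = 0.49). Cebpa, the partner factor of PPARγ, was at 138 to 175 and 159.7 to 167 FPKM (0.086, SE 0.21, limma adjusted p = 0.821), and the ranges of ctrl and Cre + NFIA overlapped. Fabp4, the main fatty acid binding protein of adipocytes, was at 15733, 18536 and 18363 FPKM in ctrl against 14491, 14714 and 14648 in Cre + NFIA (-0.26, SE 0.35, limma adjusted p = 0.657), and Adipoq, adiponectin, at 1789.9 to 1964 and 1725 to 1821 FPKM (-0.079, SE 0.35, limma adjusted p = 0.904). Cfd, the adipokine adipsin, lay farther apart at 238, 337 and 287 FPKM in ctrl against 146, 132 and 143 in Cre + NFIA, but missed the threshold (-1.02, SE 0.35, limma adjusted p = 0.0583). The standard errors of these genes come from all 12 day 7 libraries. In a fit of the 6 libraries alone Cfd, Cidec and Pparg passed, with adjusted p of 0.000472, 0.0122 and 0.0445. The summed level of the 8 markers was 21676 to 25224 FPKM in ctrl and 20112 to 20365 in Cre + NFIA. Most of this sum was Fabp4, with means of 17544 and 14618 FPKM, which did not pass, so the sum says little about the other markers. In bulk samples fewer cells of a type and less RNA per cell cannot be told apart.

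Of 6 precursor markers, 3 passed as lower, and the summed level of the 6 was 502 to 552 FPKM in ctrl and 528 to 598 in Cre + NFIA. Pdgfra, a surface marker of adipocyte precursors, was at 34.6, 24.1 and 28.7 FPKM in ctrl against 18.5, 16.3 and 19.2 in Cre + NFIA (log2 difference -0.65, SE 0.12, limma adjusted p = 0.00278). On the log2 scale Pdgfrb, a further receptor of precursors and mural cells, fell by 0.55 and Dlk1, preadipocyte factor 1, fell by 1.11. Ly6a, Cd34 and Thy1 did not pass, with log2 differences of 0.18, 0.13 and 0.039. Of 22 tested members of the wider precursor list, 2 passed as higher (9.1%) and 9 as lower (40.9%), against 9.62% and 9.86% of all genes. The median difference was -0.161 against 0.023 over all genes tested. F3, tissue factor, a marker of a regulatory stromal population, fell from a range of 46.01 to 57.99 to one of 23.2 to 24.6 FPKM (-1.11, SE 0.078, limma adjusted p = 3.09e-06), and Ly6c1 rose (0.58, SE 0.095, limma adjusted p = 0.00124).

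Among 25 tested regulators of thermogenesis, 5 passed as higher and 5 as lower, 20% each against 9.62% and 9.86% of all genes, with a median of -0.016. Ppargc1a, the coactivator of mitochondrial biogenesis, was at 1.14, 1.49 and 1.699 FPKM in ctrl against 5.91, 6.13 and 5.55 in Cre + NFIA, a linear fold of 4.07, and lay just under the 3-fold limit of the fitted scale (1.497, SE 0.12, limma adjusted p = 1.03e-05). Thrb, the thyroid hormone receptor β, was at 0.7702, 0.901 and 1.23 FPKM in ctrl against 3.51, 4.100 and 4.11 in Cre + NFIA (1.32, SE 0.11, limma adjusted p = 1.14e-05). Cited1, a transcriptional coregulator used as a beige marker, rose from a range of 0.322 to 1.25 to one of 2.296 to 2.94 FPKM (1.16, SE 0.18, limma adjusted p = 0.001). Ppara, the receptor that drives fatty acid oxidation genes, was at 2.14, 1.72 and 2.66 FPKM in ctrl against 4.33, 4.72 and 4.52 in Cre + NFIA (0.81, SE 0.12, limma adjusted p = 0.000778). On the lower side were Nr4a1, an orphan nuclear receptor (-0.62, SE 0.13, limma adjusted p = 0.00757), Tbx15, a T-box factor of adipose precursors (-0.45, SE 0.055, limma adjusted p = 0.000181), and Hoxc10, a factor of subcutaneous white fat (-0.397, SE 0.066, limma adjusted p = 0.00137).

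Of 21 tested thermogenic effectors, 7 passed as higher (33.3%) and 1 as lower (4.8%), against 9.62% and 9.86% of all genes, but the median was -0.076. Scaling by median-of-ratios size factors gave 6 and 4, where 956 and 1327 of all 11690 genes passed. The largest after Cox8b was Cox7a1, another muscle and brown fat subunit of cytochrome c oxidase, at 4.67, 5.73 and 8.13 FPKM in ctrl against 13.02, 14.7 and 15.3 in Cre + NFIA (1.12, SE 0.21, limma adjusted p = 0.00318). Ucp2, an uncoupling protein homologue, rose from a range of 56.8 to 76.1 to one of 125 to 133 FPKM (0.900, SE 0.25, limma adjusted p = 0.024). The member that passed as lower was Alpl, tissue-nonspecific alkaline phosphatase, at 20.7, 22.1 and 21.2 FPKM in ctrl against 8.57, 9.03 and 10.8 in Cre + NFIA (-1.096, SE 0.11, limma adjusted p = 6.26e-05). Ucp1 itself was at 0.892, 0.522 and 1.55 FPKM in ctrl against 0.815, 0.634 and 1.16 in Cre + NFIA, too low to be tested, and the groups overlapped. The titles of these libraries name no forskolin, with which the study raised cyclic AMP when it measured the Ucp1 response of such cells. Cidea, a lipid droplet protein of brown fat, was at 0.0818 to 0.304 FPKM in ctrl and 0.256 to 0.646 in Cre + NFIA, also below the filter, with 4 or more reads in each Cre + NFIA library and at most 5 in ctrl. A further 13 of the 36 listed effectors were below the filter.

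Of 41 tested fatty acid oxidation genes 6 passed as higher and 1 as lower, with a median of 0.178, and their share of higher genes, 14.6%, was near the 9.62% of all genes. They were led by Acot5, a peroxisomal thioesterase, Phyh, phytanoyl-CoA hydroxylase, and Acadm, medium-chain acyl-CoA dehydrogenase, with log2 differences of 0.79, 0.76 and 0.55, whereas Ehhadh of the peroxisome fell (-0.64, SE 0.19, limma adjusted p = 0.0371). In the fit of the 6 libraries alone 16 members of this list passed as higher and 3 as lower, where 1226 and 1145 of all 11690 genes did. Of 50 tested genes of the TCA cycle, pyruvate and branched-chain amino acid breakdown, 11 passed as higher, which is 22%, and 0 as lower (median 0.119), while 15 and 2 did so in the 6-library fit. Mccc1, a subunit of methylcrotonoyl-CoA carboxylase, was the highest at 0.66 (SE 0.104, limma adjusted p = 0.000976). Of 81 respiratory chain and ATP synthase subunits, 9 passed as higher and 1, the muscle isoform Cox6a2, as lower (median 0.104), with Cox8b and Cox7a1 counted in this list too, so that 11.1% were higher, near the 9.62% of all genes, and 5 were higher under median-of-ratios scaling. Glycolysis had 8 higher (30.8%) and 2 lower of 26 (median 0.137). Pgk1, phosphoglycerate kinase, was at 224 to 247 FPKM in ctrl and 325 to 448 in Cre + NFIA (0.66, SE 0.11, limma adjusted p = 0.00146). Ldhb was among the lower ones at -0.505 (SE 0.11, limma adjusted p = 0.00892).

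Of 21 tested genes of the lipid droplet and lipolysis, 4 passed as higher and 0 as lower (median 0.106), against 9.62% higher and 9.86% lower over all genes. Besides the carboxylesterases these included Pnpla3, an adipose acylhydrolase, at 15.99, 19.6 and 20.2 FPKM in ctrl against 42.6, 43.97 and 42.3 in Cre + NFIA (1.17, SE 0.17, limma adjusted p = 0.000473). In the 6-library fit Cidec of this list (-0.37) passed as lower, so the count of 0 lower members depends on the fit. Of 29 genes of fatty acid and triglyceride synthesis, 4 passed as higher and 1 as lower, with a median of -0.001. Mogat1, a monoacylglycerol acyltransferase, Dgat2, which makes triglyceride, and Pck1, the enzyme of glyceroneogenesis, rose by 1.37, 0.88 and 0.85. Of 15 genes of fatty acid uptake, Fabp3 and Dbi, the acyl-CoA binding protein, passed as higher and Slc27a1, a fatty acid transporter, as lower (-0.75, SE 0.202, limma adjusted p = 0.0214). In the 6-library fit 5 uptake genes passed as higher and 3 as lower, where 1226 and 1145 of all 11690 genes did. Adipokine genes had 4 higher and 2 lower of 17. The latter were Metrnl, a secreted meteorin-like protein, and Fgf21, a hepatokine and adipokine, at 6.54, 8.75 and 12.05 FPKM in ctrl against 6.05, 3.98 and 3.61 in Cre + NFIA (-0.85, SE 0.27, limma adjusted p = 0.0472). Cfd of the adipokine list (-1.02) passed as lower in the 6-library fit. Insulin signalling genes had 1 higher and 4 lower of 24, which became 5 and 4 in the 6-library fit, and cholesterol synthesis 3 and 3 of 27.

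Extracellular matrix and contractile genes were among the lists with the largest shares of lower members. All lists were chosen with earlier results of these data known, so their shares describe the listed members only. Of 24 tested collagen chains, 12 passed as lower, which is 50% against 9.86% of all genes, and 2 as higher, with a median of -0.354. Col3a1, a fibrillar collagen, was at 481, 455 and 437 FPKM in ctrl against 231, 235 and 262 in Cre + NFIA (-0.91, SE 0.067, limma adjusted p = 3.97e-06). Col14a1 fell from a range of 2.36 to 2.53 to one of 0.635 to 0.8197 FPKM (-1.02, SE 0.12, limma adjusted p = 0.000114). Of 59 other matrix genes 34 passed as lower (57.6%) and 2 as higher, with a median of -0.344. Mgp, matrix Gla protein, was at 17.6, 12.7 and 13.6 FPKM in ctrl against 6.88, 4.29 and 4.77 in Cre + NFIA (-1.31, SE 0.15, limma adjusted p = 8.94e-05), and Dcn, the proteoglycan decorin, at 20.4 to 24.1 and 9.84 to 11.8 FPKM (-0.998, SE 0.11, limma adjusted p = 8.94e-05). Pcolce2, a collagen processing protein, was the higher member with the largest difference (0.498, SE 0.062, limma adjusted p = 0.000199).

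Smooth muscle contractile genes had 12 lower (46.2%) and 1 higher (3.8%) of 26 (median -0.241), against 9.86% lower and 9.62% higher over all genes. Myl9, a regulatory myosin light chain, was at 58.2, 46.1 and 44.5 FPKM in ctrl against 23.5, 23.2 and 28.6 in Cre + NFIA (-0.95, SE 0.11, limma adjusted p = 8.53e-05), and Tagln, transgelin, at 83.2 to 115 and 44.6 to 54.7 FPKM (-0.95, SE 0.12, limma adjusted p = 0.000211). Cnn1, calponin, fell by 0.90, and Myh10, a nonmuscle myosin, was the member that rose (0.42, SE 0.059, limma adjusted p = 0.000478). Of 37 genes of TGF-β and BMP signalling, 16 passed as lower (43.2%) and 3 as higher (8.1%), with a median of -0.207. The lower ones included Ctgf, a matricellular TGF-β target (-0.96, SE 0.098, limma adjusted p = 5.56e-05), and Fstl1, a follistatin-like secreted protein, at 225 to 285 FPKM in ctrl and 147 to 155 in Cre + NFIA. Of 12 tested Wnt ligands and antagonists 4 were lower (33.3%) and 1 higher (median -0.295), so this share rests on few genes. Sfrp2, a secreted Wnt antagonist, was at 99.3, 93.4 and 91.1 FPKM in ctrl against 45.5, 38.97 and 42.1 in Cre + NFIA (-1.15, SE 0.067, limma adjusted p = 7.34e-07).

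**Figure D3:**
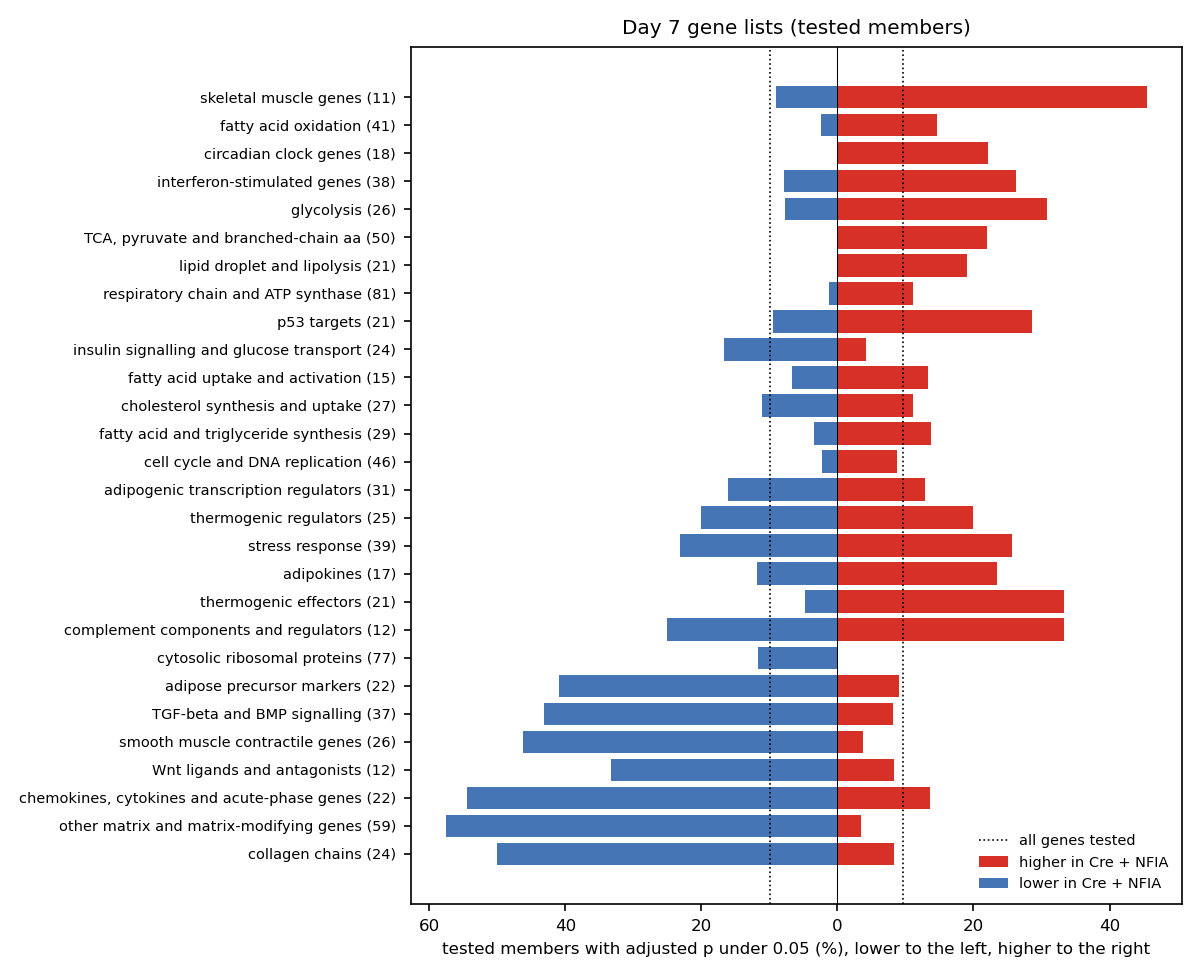
Share of tested members with an adjusted p under 0.05 at day 7 (horizontal axis, percent), to the right for genes higher and to the left for genes lower in Cre + NFIA, for lists with at least 10 tested members (number in brackets), ordered by their median difference. Dotted lines mark the same shares over all 11690 genes, 9.62% and 9.86%. Matrix, chemokine and contractile lists reach far to the left, 57.6% for other matrix genes. The lists were chosen with earlier results of these data known.

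Of 22 tested chemokine, cytokine and acute-phase genes, 12 passed as lower (54.5%) and 3 as higher (13.6%), against 9.86% and 9.62% of all genes. Their median was -0.337. Lcn2, lipocalin 2, which binds bacterial siderophores, was at 17.2, 16.8 and 18.4 FPKM in ctrl against 6.37, 6.302 and 5.21 in Cre + NFIA (-1.41, SE 0.19, limma adjusted p = 0.000409). Il1rn, the interleukin 1 receptor antagonist, and Il1rl1, the receptor of interleukin 33, had log2 differences of -1.01 and -0.93. The 3 higher ones were Nos3, the endothelial nitric oxide synthase, and the chemokines Ccl8 and Ccl5, at 0.79, 0.51 and 0.34. Interferon-stimulated genes had 10 higher (26.3%) and 3 lower (7.9%) of 38 (median 0.144). Under median-of-ratios scaling they had 6 and 4, where 956 and 1327 of all 11690 genes passed. The higher ones with the largest difference were Ifi27l2a, an interferon-induced membrane protein (0.76, SE 0.13, limma adjusted p = 0.00146), Psmb9, an immunoproteasome subunit (0.63, SE 0.12, limma adjusted p = 0.00292), and H2-K1, a class I histocompatibility chain, at 395 to 496 FPKM in ctrl and 628 to 691 in Cre + NFIA (0.58, SE 0.090, limma adjusted p = 0.000851). The 3 lower ones were Isg15, Rsad2 and Stat2, of which Isg15, a ubiquitin-like modifier, had the largest difference (-0.46, SE 0.11, limma adjusted p = 0.0137). Complement genes had 4 higher (33.3%) and 3 lower (25%) of only 12 tested.

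Cytosolic ribosomal protein genes had 0 higher and 9 lower of 77 (median -0.112). Their share of lower genes, 11.7%, was near the 9.86% of all genes. Cell cycle genes had 4 higher and 1 lower of 46 (median -0.015). The p53 targets had 6 higher and 2 lower of 21, that is 28.6% higher against 9.62% of all genes, with Cdkn1a, a cell cycle inhibitor, at 238 to 254 FPKM in ctrl and 316 to 337 in Cre + NFIA (0.42, SE 0.067, limma adjusted p = 0.00113). Stress response genes had 10 higher and 9 lower of 39, and adipogenic transcription regulators 4 and 5 of 31. Of 18 circadian clock genes 4 were higher (22.2%) and 0 lower, and 2 were higher in the 6-library fit, where 1226 of all 11690 genes were.

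Genes of skeletal muscle were read because the myogenic factors are an alternative fate of related precursors. Myod1 and Myh8 had 0 reads in all 6 libraries, and Myog, a myogenic transcription factor, had at most 1 read in ctrl and 3 in Cre + NFIA. Of 45 listed muscle genes 11 could be tested, of which 5 passed as higher and 1 as lower, against 9.62% and 9.86% of all genes. Tnnc2, fast troponin C, was at 3.88, 5.92 and 4.91 FPKM in ctrl against 14.1, 14.1 and 12.3 in Cre + NFIA (1.31, SE 0.17, limma adjusted p = 0.00027), and Acta1, skeletal α-actin, at 2.13 to 3.82 and 5.398 to 6.43 FPKM (0.83, SE 0.17, limma adjusted p = 0.00623). The summed level of the 45 genes was 25.2 to 30.95 FPKM in ctrl and 41.6 to 44.7 in Cre + NFIA. Myl4 did not pass (0.27, SE 0.17, limma adjusted p = 0.291). Markers of other cell types were read in the same way, and their part in the differences above was not tested. The summed level of 18 leukocyte markers was 6.62 to 7.04 FPKM in ctrl and 6.29 to 7.46 in Cre + NFIA, with Ptprc and Adgre1 at 0 in all 6 libraries and 0 of 3 tested markers passing. Of 7 Schwann cell markers, Ngfr (0.85, SE 0.14, limma adjusted p = 0.00146) and S100b (0.44, SE 0.13, limma adjusted p = 0.033) passed as higher and Cdh19 was at 0, and the list summed to 6.37 to 7.704 FPKM in ctrl and 10.3 to 12.2 in Cre + NFIA. Of 7 mural cell markers, Cspg4 passed as higher and Notch3 as lower, with sums of 55.8 to 59.3 and 63.6 to 69.3 FPKM, and Kcnj8 and Higd1b were at 0. Of 12 mesothelial and epithelial markers only 1 was tested and did not pass, with sums of 6.396 to 9.48 and 6.304 to 8.49 FPKM.

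Whether a day 7 difference was present before differentiation was asked at day 0, where 25 genes were called higher (0.214%) and 21 lower (0.18%) of the same 11690, together 0.393%. The difference between the days was then tested as an interaction, with 27 genes called higher (0.231%) and 18 lower (0.154%). Of the 29 called higher genes of at least 200 bases, 11 passed as higher at day 0, against 19.6% of all genes, and 18 did not pass. The interaction passed as higher in 23 of them, as lower in 1 and not at all in 5. Over all genes 10.2% passed as higher, but nothing is read from this count, because the day 7 difference that chose the 29 genes is a term of the interaction. Their median difference was 0.15 at day 0 and 1.99 at day 7. In ctrl cells themselves 22 of the 29 passed as higher at day 7 than at day 0 and 3 as lower. Nothing is read from these counts, because the ctrl day 7 libraries also chose the 29 genes and the share over all genes is not given.

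Some of these genes were at or near 0 in precursors of both groups. Hamp2 and Olig1 had 0 reads in all day 0 libraries of ctrl and Cre + NFIA, and Cyp2e1 was at 0.0324 FPKM in ctrl and 0 in Cre + NFIA, so that its interaction was 4.72 (SE 0.16, limma adjusted p = 5.67e-14). Cox8b was at 0.0737 FPKM in ctrl and 0 in Cre + NFIA at day 0 (interaction 3.18, SE 0.16, limma adjusted p = 3.94e-11), and Ces1d at 0.0682 and 0.0836 FPKM (interaction 1.97, SE 0.25, limma adjusted p = 1.2e-05). For Rbp4 the day 0 means were 0.894 and 1.21 FPKM (interaction 1.71, SE 0.26, limma adjusted p = 6.79e-05). Car3 was at 0.0333 FPKM in ctrl and 0.0205 in Cre + NFIA at day 0, and Mmd2 and 4631405J19Rik had 0 reads in both groups there.

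A smaller set already differed in precursors. Angpt4 was at 1.71, 0.893 and 1.47 FPKM in ctrl against 10.8, 11.01 and 10.9 in Cre + NFIA at day 0 (day 0 difference 2.35, SE 0.14, limma adjusted p = 8.79e-07), and the interaction did not pass (0.33, SE 0.21, limma adjusted p = 0.259). Wfdc21 was at 0.174 to 0.405 FPKM in ctrl and 5.56 to 6.602 in Cre + NFIA (2.39, SE 0.15, limma adjusted p = 1.5e-06). Endod1, Gpx3 and Nfia were likewise higher at day 0, with differences of 1.33, 1.56 and 3.297, and their interactions did not pass. Bmp4 differed more before than after differentiation, at 0.517, 0.351 and 0.148 FPKM in ctrl against 12.8, 11.5 and 14.00 in Cre + NFIA at day 0 (3.37, SE 0.12, limma adjusted p = 2.83e-08), and its interaction was -1.77 (SE 0.19, limma adjusted p = 1.02e-06). Igf2 was lower at day 0 as at day 7, with 3.996, 4.24 and 4.05 FPKM in ctrl against 0.787, 0.655 and 0.845 in Cre + NFIA (-1.53, SE 0.079, limma adjusted p = 2.76e-07).

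**Figure D4:**
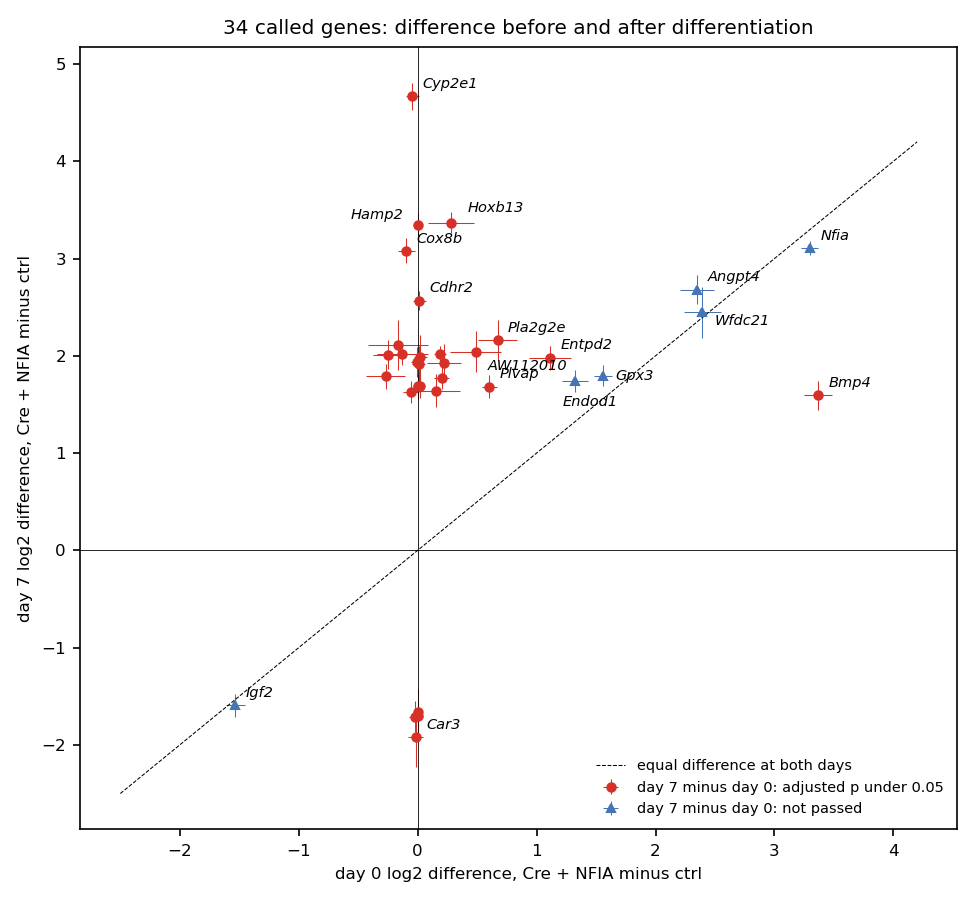
Difference at day 0 (horizontal axis) and at day 7 (vertical axis), log2, Cre + NFIA minus ctrl, for the 34 called genes of at least 200 bases, with standard errors as bars. Circles are genes whose interaction passed and triangles genes whose interaction did not, and the dashed line marks equal differences. Most genes stand near 0 at day 0, while Nfia, Angpt4, Wfdc21, Endod1, Gpx3 and Igf2 lie near the line and Bmp4 lies below it at 3.37 and 1.59.

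Lists of matrix genes held many lower members at day 0 too, where 14.1% of all genes passed as lower. Of 59 other matrix genes 35 passed as lower and 16 as higher at day 0, and of 24 collagens 17 and 2. Cell cycle genes, of which 40 of 46 were higher at day 0 against 19.6% of all genes, had 4 higher at day 7. Ribosomal protein genes had 56 of 77 higher at day 0 and 0 at day 7, and the interaction passed as lower in 61 of them, against 14.1% of all genes. F3 differed by -1.43 at day 0 and -1.11 at day 7, and Myl9 by -1.37 and -0.95, for which the interaction did not pass (0.42, SE 0.16, limma adjusted p = 0.0595). Pparg was higher in Cre + NFIA at day 0, at 4.54, 3.63 and 3.45 FPKM in ctrl against 4.89, 7.25 and 6.51 in Cre + NFIA (0.56, SE 0.15, limma adjusted p = 0.0174), and Cebpa likewise (0.83, SE 0.11, limma adjusted p = 0.000188). At day 7 neither passed, and the interaction passed for Cebpa (-0.75, SE 0.25, limma adjusted p = 0.0351) but not for Pparg (-0.36, SE 0.25, limma adjusted p = 0.319). Gdf15, a stress-induced cytokine, differed by 2.34 at day 0 and by 0.44 at day 7 (interaction -1.91, SE 0.298, limma adjusted p = 9.78e-05). Lcn2 was at 58.3, 60.9 and 64.04 FPKM in ctrl against 239.8, 216 and 224 in Cre + NFIA at day 0 (1.87, SE 0.11, limma adjusted p = 9.07e-07), the reverse of its day 7 direction.

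The levels of the called genes in the other cell types at day 7 are given side by side, because each of these comparisons uses libraries of ctrl or Cre + NFIA again. Cox8b was at 0.1597 FPKM (mean, n = 3) with Cre alone, 12.3 in ctrl, 111 in Cre + NFIA and 0.303 with Δpro#3. Rbp4 was at 10.3, 83.9, 322 and 2.49 FPKM in this order, and Cbr2 at 2.99, 45.8, 185 and 2.599. For these 3 genes the order was Cre + NFIA, ctrl and then the other groups, with Cre below ctrl by -3.52, -2.94 and -3.54 on the log2 scale, each past the threshold. Cyp2e1 was at 0.0384 FPKM with Cre and 0.0329 with Δpro#3, and neither passed against ctrl (limma adjusted p = 0.236 and 0.202). Hamp2 had 0 reads with Cre and was at 0.0601 FPKM with Δpro#3, and Nfia itself was at 102 FPKM there and at 89.99 in Cre + NFIA.

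Car3 and Gpx3 had another order. Car3 was at 151 FPKM in ctrl, 39.00 in Cre + NFIA, 20.4 with Cre and 3.31 with Δpro#3, so Cre + NFIA lay between Cre and ctrl. Bcas1, Mmd2 and 4631405J19Rik were also below ctrl in both, with Cre + NFIA means of 2.66, 0.942 and 1.27 FPKM and Cre means of 1.95, 0.757 and 1.04. Cre + NFIA differed from Cre by 0.33 (SE 0.16, limma adjusted p = 0.0928) for Bcas1, 0.19 (SE 0.23, limma adjusted p = 0.507) for Mmd2 and 0.16 (SE 0.15, limma adjusted p = 0.359) for 4631405J19Rik, while Car3 differed by 0.98 (SE 0.305, limma adjusted p = 0.0132). Gpx3 was lowest in ctrl at 13.2 FPKM, followed by 48.2 in Cre + NFIA, 86.05 with Cre and 149 with Δpro#3. Igf2 was at 1.19 FPKM in Cre + NFIA and 2.100 with Δpro#3 against 5.61 in ctrl and 7.66 with Cre.

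**Figure D5:**
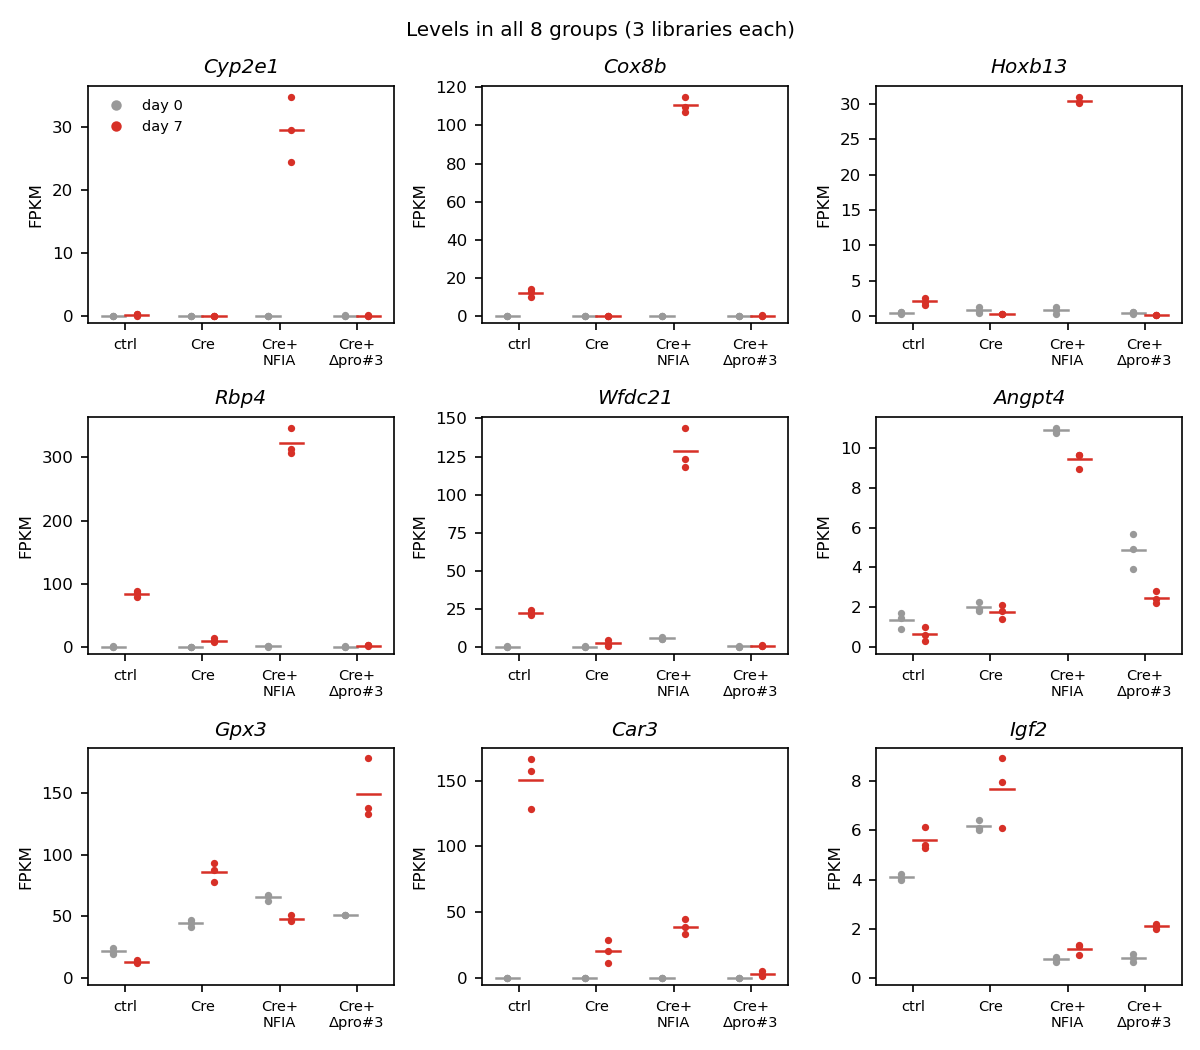
FPKM of 9 called genes in the 4 cell types at day 0 (grey) and day 7 (red), 3 libraries each, with lines at the means. Cyp2e1 stands at a mean of 29.6 FPKM in Cre + NFIA at day 7, Angpt4 and Igf2 differ from ctrl at both days, and Gpx3 is highest with Δpro#3 at day 7.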

How the data were processed

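RNA of 24 libraries, 8 groups of 3, was sequenced with a stranded poly(A) protocol. The authors aligned reads to mm9 with STAR 2.5.3a, kept unique alignments and matched-strand counts per gene, and deposited FPKM. Reads per gene, recovered from the FPKM steps, were whole in 100% of values (tolerance 0.01). Genes that reached 1 FPKM in 3 or more of the 6 libraries compared were tested with limma 3.58.1 in R 4.3.3 (trend, two-sided, Benjamini-Hochberg over 11690 genes) on log2(FPKM + 1), in the 12 day 7 libraries, the 12 day 0 libraries, or all 24 for the interaction. The FPKM scale by library total, so a few abundant genes can shift all others. The script was tested on simulated data. Because the values are FPKM, limma voom on the recovered reads was only an alternative, chosen after seeing the data. Alternatives covered the pseudocount, filter, scaling, samples, replicate block, trend, fold threshold and left-out libraries. Named genes were all called genes, 18 genes of the study, and per list up to 3 higher and 3 lower passed members with the largest change, besides the 5 highest and 5 lowest passed genes of no list; cell type markers are named besides. The members and lists were chosen with earlier results of these data known. The 26 symbols turned into dates were left unnamed, and some genes that the rule names are not reported here. Replicate numbers did not pair the samples. RefSeq promoter windows came from GRCm38.p6. Floors cover counting error only, whereas the standard errors come from the spread between libraries in the fit.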

Additional observations from a re-analysis of the deposited data

Results flagged for a closer look

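For 24 named genes the difference between Cre + NFIA and ctrl was not the same at day 7 as at day 0, by an interaction in limma with an adjusted p under 0.05 and a size of at least 3-fold. The values are the day 7 difference minus the day 0 difference, log2. Over all genes tested 0.231% were called higher and 0.154% lower in the interaction. Nothing is read from the count of 24, because the day 7 difference that chose many of the named genes is a term of the interaction. Of the 24 genes, 17 were positive. The largest were in genes nearly absent from ctrl or from precursors, with Cyp2e1 at 4.716, Hamp2 at 3.343, Cox8b at 3.175, Hoxb13 at 3.089 and Cdhr2 at 2.552. The enzymes and lipid genes were Fabp3 at 2.277, Cbr2 at 2.259, Amy1 at 2.059, Ces1d at 1.97, Ces1f at 1.908, Chdh at 1.828 and Rbp4 at 1.709. Mc5r was at 2.146, Igfbp5 at 1.94, Tppp at 1.689, Olig1 at 1.685 and Trpv3 at 1.674.

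The other 7 were negative. Car3 was at -1.906, 4631405J19Rik at -1.702, Bcas1 at -1.687 and Mmd2 at -1.657, all of which were called lower at day 7. Bmp4 was at -1.774 and Gdf15 at -1.905, with the larger difference at day 0. Lcn2 was at -3.283 and lay above ctrl at day 0 but below it at day 7. Groups of 3 libraries were not examined for a library that stands apart.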

How the results depend on the processing

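The 34 called genes of at least 200 bases kept their direction and passed in all 598 values computed under the alternatives. The 14 values of called genes that missed the threshold were all of genes under 200 bases. The count of called genes depended on the handling of low values. At day 7 it was 81 higher and 19 lower with a pseudocount of 0.1, 11 and 1 with 5, 18 and 2 at a mean of at least 5 FPKM, and 84 and 22 with voom on recovered reads. With no fold threshold it was 1125 and 1153, at 1.5-fold 252 and 254, and at 2-fold 97 and 35. At day 0 it was 55 and 56, 6 and 8, 14 and 9, and 79 and 66 under the first 4 of these settings, and for the interaction 69 and 44, 9 and 7, 13 higher, and 63 and 51. The cause was not tested.

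Leaving out 1 library gave 27 to 32 genes called higher and 6 to 8 lower at day 7, 22 to 28 and 20 to 23 at day 0, and 25 to 31 and 15 to 24 for the interaction. Genes passed as higher were 684 to 911 and as lower 768 to 1017 at day 7. They were 727, 684 and 739 higher without Cre + NFIA replicate 1, 2 and 3, and 768 lower without replicate 2, where fewer samples enter. Plin1, with a difference near 0, turned to -0.0127 with median-of-ratios size factors and lay between -0.0345 and 0.0838 with 1 library left out, below 0 without ctrl replicate 1 or 3 or Cre + NFIA replicate 1 or 3 (-0.0345, -0.0101, -0.0003 and -0.0059). Thy1 lay between -0.0301, without ctrl replicate 3, and 0.1186. Median-of-ratios scaling moved the share of higher among passed genes from 49.4% to 41.9%. Same-numbered samples shared only a number, with correlations of 0.063, -0.082 and -0.110 at day 7. With a replicate block 32 genes were called higher and 7 lower at day 7, and 1113 and 1167 passed.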

Other observations

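Hoxb13 led to a look at the Hox clusters, a list added after its values were seen. Of 39 Hox genes 26 were tested at day 7, of which 2 passed as higher and 6 as lower, with a median difference of 0.005. Hoxb13 and Hoxb5 were the higher ones, at 3.37 and 0.42. The lower ones, 23.1% of the list against 9.86% of all genes, were Hoxc4, Hoxc6, Hoxc9, Hoxc10, Hoxc11 and Hoxc13. Hoxc11 had the lowest value at -0.67, followed by Hoxc4 and Hoxc13 at -0.43 each. None of the 6 was called, and leaving out 1 library gave 3 to 4 lower genes. The list was chosen on these samples, so nothing is read from its counts.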
